A study of Mus musculus with 6 samples.

Results

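The genes described here are 10 ubiquitin ligase genes that are tied to muscle wasting, chosen by name: the muscle RING-finger family Trim63, Trim55 and Trim54, the F-box gene Fbxo32, and Trim32, Nedd4, Cblb, Traf6, Stub1 and Mul1. They were found by symbol among 53342 genes of a table of mouse skeletal muscle expression, and all 10 were present and passed the level filter. Proteins marked for destruction in muscle receive a chain of ubiquitin from an activating enzyme (E1), a conjugating enzyme (E2) and a ligase (E3), and the ligase selects the protein. The proteasome then degrades the marked protein. Trim63, which encodes MuRF1, and Fbxo32, which encodes atrogin-1 (MAFbx), are known as the ligases whose transcripts rise in fasting, denervation, glucocorticoid treatment and disuse, and FoxO transcription factors, which insulin and IGF signalling through Akt restrains, are known activators of both.

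RNA was sequenced from skeletal muscle of male mice in 6 libraries, 2 for each of 3 genotypes. Control libraries carry a Loxp description and no further genotype in the labels. LDKO mice are Irs1L/L:Irs2L/L:CreAlb, so that Cre under the albumin promoter removes the insulin receptor substrates Irs1 and Irs2 from hepatocytes. LTKOFstL/L mice come from a cross of LDKO with FstL/L mice, in which loxP sites flank exons 2 to 5 of the follistatin gene Fst, and lack hepatic Fst as well. The deletions are in the liver while the RNA is from muscle, so the muscle transcripts of the deleted genes do not check the labels. The diet is not settled: all 6 sample labels name a high fat diet, whereas the series text names chow from week 5 to week 16. Neither the muscle taken nor the age at sampling is stated, nor whether 2 libraries of 1 genotype stem from different mice, so p-values measure only the spread between these libraries.

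Values are log2 expression centred on each gene's median over the 6 libraries, so 0 is the gene's own median library. Centring removes the level of a gene, and levels are therefore not compared between genes. The rounding of the stored numbers brackets only a gene's median log2 level, at 8 to 16 for Trim63 and Fbxo32. From an estimate within that bracket, each of the 10 genes was put at 8 or more in its lowest library, which is 256 scaled units or more. The bracket was least certain for Traf6 (16 to 32, probability 0.51) and Trim55 (8 to 16, probability 0.91). Total read depth is unknown. All 13 skeletal muscle markers tested were also placed at 8 or more, and their mean centred value lay between −0.06 and 0.16 in the 6 libraries. The 16 pancreatic acinar markers averaged 12.4 and 8.34 in Control, against 1.15 and −1.50 for LDKO and −2.19 and −2.15 for LTKOFstL/L, and all 16 passed as lower in LTKOFstL/L against Control. The 9 adipocyte markers averaged −0.43 and −0.15 in Control, −0.77 and 0.08 in LDKO, with 1.87 and 0.71 in LTKOFstL/L, and the 10 fibroblast and tendon markers −0.05 and 0.30, −0.72 and −0.92, and 0.71 and 0.33. The 8 slow muscle markers averaged 0.10 and −0.33 in Control, 0.25 and 0.60 in LDKO, with −0.15 and −0.10 in LTKOFstL/L. Means over the other lists ranged over the 6 libraries from −0.48 to 1.28 for 3 of 7 heart markers, −0.96 to 0.69 for 7 nerve markers, −0.42 to 0.20 for 8 macrophage markers, −0.22 to 0.19 for 5 endothelial markers and −0.85 to 0.74 for 5 liver markers. No marker gene was at the floor in every library except 1 of 2 entries of Itgam. In bulk tissue, fewer cells of a type and less RNA per cell cannot be told apart.

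The results turn on Trim63, and its promoter is shown because a glucocorticoid receptor motif and a FoxO motif stand end to end in it. RefSeq start sites on GRCm38.p6 were matched for 8 of the 10 genes, and Fbxo32 and Trim55 were not matched. The window searched ran from 250 bases before to 50 bases after the start, on both strands, for GTAAACA (FoxO), AGAACA (1 arm of a glucocorticoid receptor element) and CANNTG (E-box, the motif of myogenic factors). The 250 bases before the start are given 5′ to 3′ on the gene's strand, with matches in capitals. The bases shown for Trim63 are chr4:134314870-134315119 (plus strand), and those for its relative Trim54, given for comparison, chr5:31116362-31116611 (plus strand). The Trim54 bases do not adjoin the gene start of 31116712 given below, which is from GENCODE M21.
Trim63: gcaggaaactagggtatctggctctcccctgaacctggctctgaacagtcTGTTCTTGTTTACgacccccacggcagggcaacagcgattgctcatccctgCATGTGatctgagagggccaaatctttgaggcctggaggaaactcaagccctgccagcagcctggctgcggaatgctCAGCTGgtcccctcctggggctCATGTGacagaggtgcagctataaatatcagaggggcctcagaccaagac
Trim54: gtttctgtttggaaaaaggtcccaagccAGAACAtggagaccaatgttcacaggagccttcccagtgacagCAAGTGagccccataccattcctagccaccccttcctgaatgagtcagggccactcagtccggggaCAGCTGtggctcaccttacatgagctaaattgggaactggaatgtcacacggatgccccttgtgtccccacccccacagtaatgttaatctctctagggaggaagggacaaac
In Trim63 the glucocorticoid receptor motif, read on the other strand as TGTTCT, begins 200 bases before the start and the FoxO motif, read as TGTTTAC, begins 194 bases before it. Its E-boxes begin 149, 72 and 50 bases before the start. Trim54 has a glucocorticoid receptor motif at 222 bases and E-boxes at 179 and 113 bases before the start, and no FoxO match. None of the other 6 matched genes had a FoxO match, and of these only Nedd4 had a glucocorticoid receptor motif, in 1 of its 2 windows. Among all 32851 windows of the table, 3.65% hold the FoxO motif, 19% the glucocorticoid receptor motif and 72.3% an E-box. The FoxO and glucocorticoid receptor motifs occur together in 0.877% of windows and stand end to end in 5 windows (0.0152%). These joint counts were not fixed beforehand, and Trim63 is shown for this arrangement, so they are a description and no test. No matches in the sequences above share a base. These are matches of letters and not shown sites.

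Trim63 was far lower in LTKOFstL/L muscle than in both other genotypes. MuRF1 is a RING-finger ligase of the sarcomere that marks myosin heavy chain and other thick filament proteins. Trim63 (ENSMUSG00000028834, GRCm38 chromosome 4, 134315120 to 134329629) had values of 0.55 and −0.55 in Control, 0.82 and 0.71 in LDKO, with −2.45 and −2.51 in LTKOFstL/L. Both LTKOFstL/L libraries lay below all others, and both LDKO libraries lay above both Control libraries. Because LDKO lay above and LTKOFstL/L below, the Control values straddle the median and their mean is 0 by construction, with an SD of 0.78 (n = 2). Relative to Control, Trim63 in LTKOFstL/L fell by 2.48 ± 0.32 (SE) on the log2 scale, a 5.57-fold lower value with a 95% interval of 3.27 to 9.49 (limma, adjusted p = 0.0205). Against LDKO it fell by 3.24 ± 0.32, which is 9.47-fold lower with an interval of 5.56 to 16.1 (limma, adjusted p = 0.0118). Of the 7749 genes with an estimated log2 level of 8 or more in every library, 10 had a deeper fall than Trim63 against Control and 4 against LDKO. Genes estimated under 8 in any library are outside this set, so some deeper falls are not counted. Gm26513, at −2.77 against Control, is such a gene.

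Fbxo32 fell in the same comparisons as Trim63. Atrogin-1 is the substrate-binding F-box subunit of an SCF ligase, and MyoD and the initiation factor subunit eIF3f are among its known substrates. Fbxo32 (ENSMUSG00000022358, chromosome 15, 58175879 to 58214932) had values of 0.30 and −0.30 in Control, 0.56 and 0.69 in LDKO, with −1.99 and −2.31 in LTKOFstL/L. The order of the groups was that of Trim63, with no overlap between any of them. Relative to Control it fell by 2.15 ± 0.23 (SE) in LTKOFstL/L, 4.44-fold lower with a 95% interval of 3.07 to 6.43 (limma, adjusted p = 0.00955). Against LDKO it fell by 2.78 ± 0.23, 6.86-fold lower with an interval of 4.74 to 9.93 (limma, adjusted p = 0.00558). Within Control, the first library was above the second by 2.15-fold in Trim63 and by 1.51-fold in Fbxo32. The gap between the 2 LTKOFstL/L libraries was 1.04-fold and 1.24-fold.

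**Figure D1:**
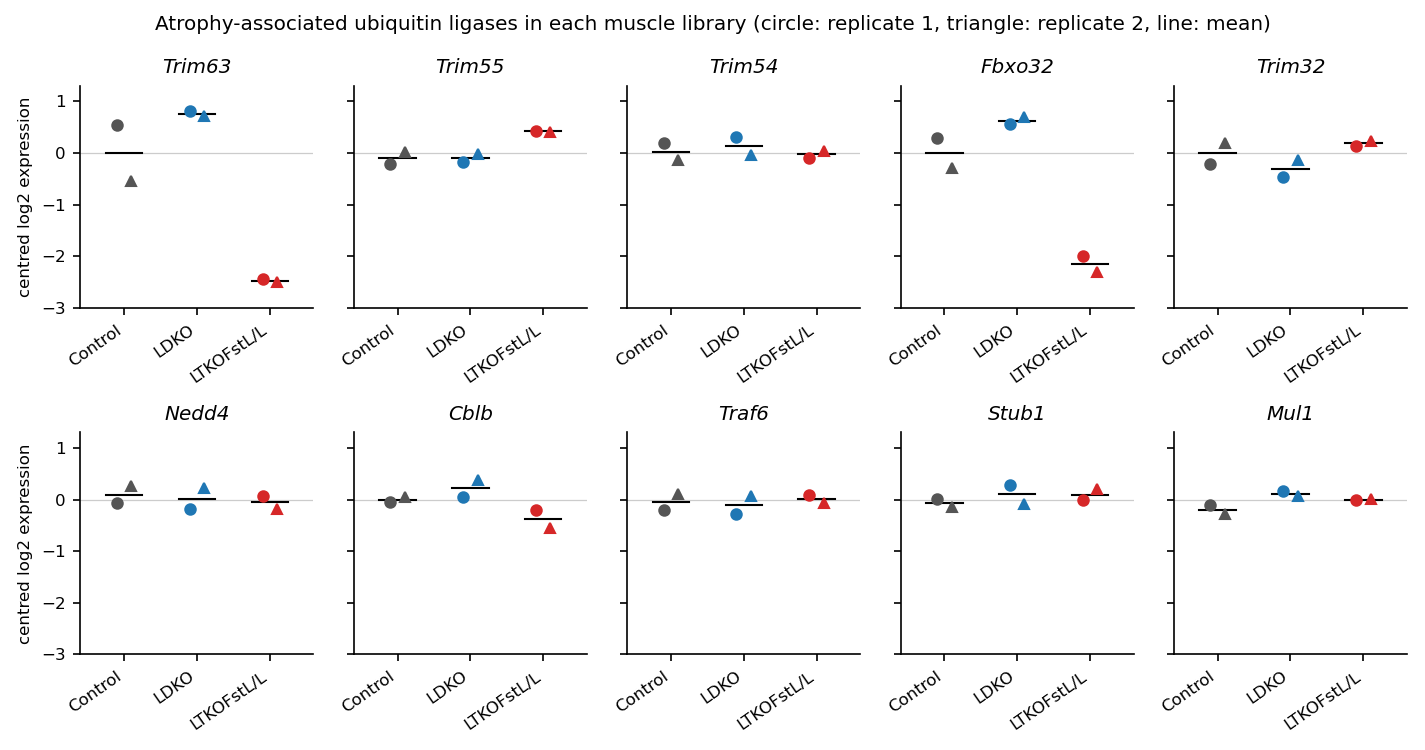
Centred log2 expression of the 10 ligase genes (y axis) in the Control, LDKO and LTKOFstL/L libraries (x axis), with circles for replicate 1, triangles for replicate 2 and a line at the mean of the 2. Trim63 and Fbxo32 stand at −2.51 to −1.99 in LTKOFstL/L, and no value of the other 8 genes is below −0.55.

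Of the 10 genes, 2 fell and 0 rose in LTKOFstL/L against Control, where 1.71% of all 17118 genes tested passed, 1.02% as lower and 0.689% as higher. The same 2 genes fell and 0 rose in LTKOFstL/L against LDKO, where 2.13% passed, 1.13% as lower and 0.999% as higher. These comparisons share the LTKOFstL/L libraries, and each shares its other group with LDKO against Control. In limma, 3 of the 10 genes had an unadjusted p under 0.05 against Control and 5 against LDKO. Over all genes tested, 15.2% and 18.7% had one. The median change of the 10 genes was 0.00 against Control and −0.09 against LDKO, beside 0.00 and 0.01 for all genes tested. The authors' deposited table of LTKOFstL/L against Control lists 2176 genes, among them Trim63 at a log2 change of −2.48 and Fbxo32 at −2.15, and none of the other 8. The authors' deposited table of LTKOFstL/L against LDKO lists 2421 genes, with Trim63 at −3.24 and Fbxo32 at −2.78 and again none of the other 8. The smallest absolute log2 change on either list is 1.00. The other 8 genes changed by less, so they could not be listed. The deposited corrected p is listed as 0 for all 4 entries.

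The calls rest on few libraries. In 14 alternative fits, Trim63 passed in 7 against Control (adjusted p from 0.00618 to 0.304) and in 8 against LDKO (0.00314 to 0.113), and its call was lost in both comparisons without LDKO 1, LDKO 2, LTKOFstL/L 1 or LTKOFstL/L 2. Fbxo32 passed in 9 fits against Control (0.00457 to 0.306), not without Control 1, LTKOFstL/L 1 or LTKOFstL/L 2, and in 13 against LDKO (0.00307 to 0.12), also with each library left out in turn. None of the 4 calls stood with a spline trend of the variance, and with a single prior for all genes only that of Fbxo32 against LDKO did. The falls ranged from −3.03 to −1.93 for Trim63 and −2.45 to −1.85 for Fbxo32 against Control. The pancreatic acinar markers had a median change of −12.8 in LTKOFstL/L against Control, with 16 of 16 lower, and of −1.80 against LDKO, where 0 of 16 passed. Their part in the falls was not tested. The adipocyte and fibroblast marker values above moved with LTKOFstL/L, with 1 of 9 and 5 of 10 higher against LDKO. In that comparison 1 of 13 skeletal muscle markers was higher, and 1 of 8 slow muscle and 1 of 3 heart markers were lower. The part of these markers was not tested either.

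In LDKO against Control, which asks what loss of both hepatic substrates does in muscle, none of the 10 genes passed in limma (adjusted p from 0.666 to 0.997), and 0.0117% of all genes did, 0.00584% in each direction. One of the 10, Fbxo32, had an unadjusted p under 0.05 (0.0271), which 6.89% of all genes had. Fbxo32 was 1.55-fold higher in LDKO with a 95% interval of 1.07 to 2.24, and Trim63 was 1.7-fold higher with an interval of 0.998 to 2.9. The Control and LDKO libraries did not overlap in 4 of the 10 genes (Trim63, Fbxo32, Cblb and Mul1, all higher in LDKO), and 33.4% of all genes showed no overlap, 16.4% with LDKO higher and 17% with LDKO lower. The change of Trim63 was 1.32 without Control 1 and 0.21 without Control 2, and that of Fbxo32 was 0.93 and 0.33. The authors' deposited table for LDKO against Control lists 1378 genes and none of the 10. The smallest absolute log2 change on that list is 1.00. All 10 genes changed by less, so they could not be listed.

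Neither relative of MuRF1 passed the test in any comparison. Trim55 encodes MuRF2 and Trim54 encodes MuRF3, RING-finger proteins of the sarcomere and of microtubules that can pair with MuRF1. Trim55 (ENSMUSG00000060913, chromosome 3, 19644474 to 19692421) had values of −0.21 and 0.03 in Control, −0.17 and −0.03 in LDKO, with 0.43 and 0.41 in LTKOFstL/L. Both LTKOFstL/L libraries lay above the other 4. Its change was 0.51 ± 0.15 (SE) against Control (adjusted p = 0.178) and 0.52 ± 0.15 against LDKO (adjusted p = 0.136), each 1.43-fold, and neither passed in limma. Trim54 (ENSMUSG00000062077, chromosome 5, 31116712 to 31137630) had values of 0.20 and −0.14 in Control, 0.32 and −0.04 in LDKO, with −0.10 and 0.04 in LTKOFstL/L, and all groups overlapped. Its change against Control was −0.06 with a 95% interval of −0.51 to 0.39, and against LDKO −0.17 with an interval of −0.62 to 0.28. The difference between Trim63 and Trim54 within a library was 0.36 and −0.41 in Control, 0.50 and 0.76 in LDKO, with −2.35 and −2.55 in LTKOFstL/L. For Trim63 and Trim55 it was 0.77 and −0.58, 0.99 and 0.74, and −2.88 and −2.92. The difference in LTKOFstL/L thus lay apart from that in the other 4 libraries for each relative, while an exact two-sided permutation test of 2 against 2 libraries cannot give a p below 0.333.

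Cblb and Trim32 stood in opposite directions in LTKOFstL/L, and neither passed. Cblb encodes a RING-finger ligase that is known to act on Irs1 in unloaded muscle. Cblb (ENSMUSG00000022637, chromosome 16, 52031225 to 52208048) had values of −0.04 and 0.04 in Control, 0.05 and 0.38 in LDKO, with −0.21 and −0.55 in LTKOFstL/L. The groups did not overlap and stood in the order of Trim63, over a 1.9-fold range. Its change was −0.38 ± 0.18 (SE) against Control (limma, adjusted p = 0.391) and −0.59 ± 0.18 against LDKO (adjusted p = 0.153). Trim32 encodes a ligase that acts on desmin and thin filament proteins, and its human gene is mutated in a limb-girdle muscular dystrophy. Trim32 (ENSMUSG00000051675, chromosome 4, 65604986 to 65616238) had values of −0.21 and 0.20 in Control, −0.46 and −0.14 in LDKO, with 0.14 and 0.24 in LTKOFstL/L. The LTKOFstL/L libraries lay above both LDKO libraries, by 0.50 ± 0.19 (adjusted p = 0.236), and overlapped Control. Trim32 lies within Astn2, a gene of the opposite strand.

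The other 4 genes varied by at most 1.37-fold over the 6 libraries. Nedd4 encodes a HECT ligase of membrane proteins. Nedd4 (ENSMUSG00000032216, chromosome 9, 72662346 to 72749852) had values of −0.08 and 0.27 in Control, −0.19 and 0.22 in LDKO, with 0.08 and −0.19 in LTKOFstL/L. Traf6 encodes a ligase of cytokine and NF-kappaB signalling that is known to be needed for the induction of Trim63 and Fbxo32 in denervated muscle. Traf6 (ENSMUSG00000027164, chromosome 2, 101678429 to 101701669) had values of −0.20 and 0.12 in Control, −0.27 and 0.07 in LDKO, with 0.09 and −0.07 in LTKOFstL/L. In both genes the gaps within groups were wider than every difference between group means.

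Stub1 encodes CHIP, which ubiquitinates clients of the heat shock chaperones. Stub1 (ENSMUSG00000039615, chromosome 17, 25830505 to 25833404) had values of 0.02 and −0.14 in Control, 0.28 and −0.08 in LDKO, with −0.02 and 0.20 in LTKOFstL/L, and all groups overlapped. Mul1 encodes a ligase of the mitochondrial outer membrane that acts on mitofusin. Mul1 (ENSMUSG00000041241, chromosome 4, 138434671 to 138442265) had values of −0.12 and −0.28 in Control, 0.16 and 0.06 in LDKO, with −0.01 and 0.01 in LTKOFstL/L. Its groups did not overlap, with LDKO highest and Control lowest, and the change from Control to LDKO was 0.31 with a 95% interval of −0.02 to 0.64 (limma, adjusted p = 0.753). Across the 8 genes other than Trim63 and Fbxo32, changes ran from −0.30 to 0.31 in LDKO against Control, −0.38 to 0.51 in LTKOFstL/L against Control and −0.59 to 0.52 in LTKOFstL/L against LDKO. Groups did not overlap in 5 of the 10 genes in LTKOFstL/L against Control and in 6 of 10 against LDKO, where 49.6% and 49.1% of all genes did not overlap. Against Control, LTKOFstL/L was higher in 2 of the 5 (25% of all genes) and lower in 3 (24.6%), and against LDKO higher in 2 of the 6 (25%) and lower in 4 (24.1%).

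**Figure D2:**
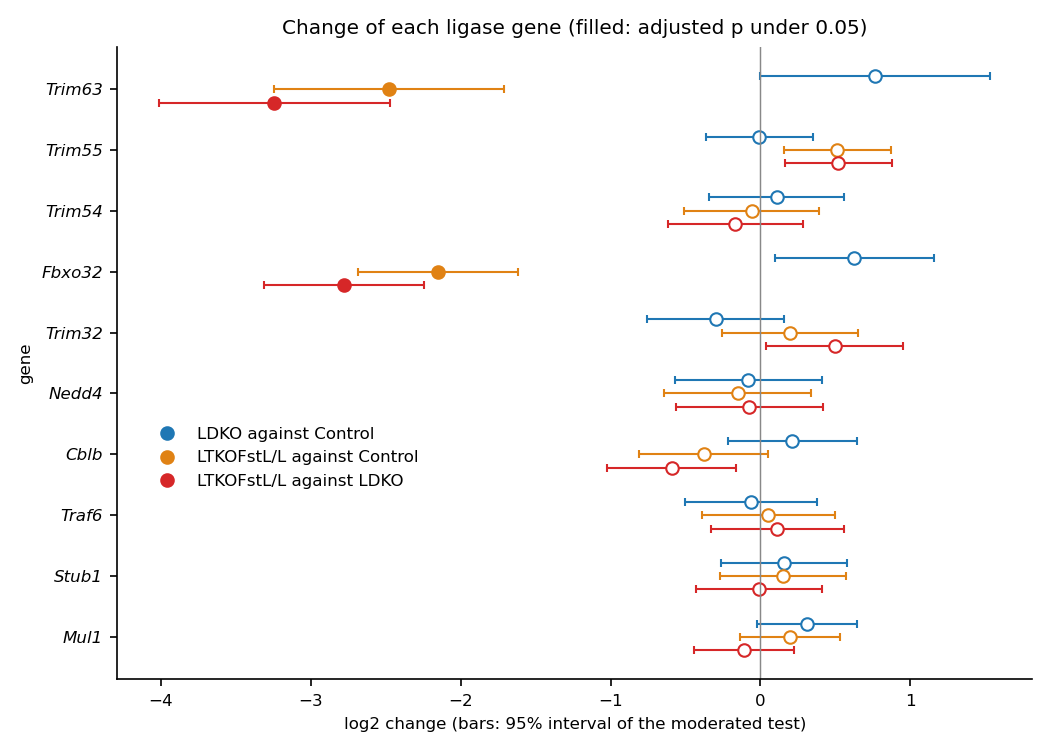
Log2 change of each ligase gene (x axis, points with 95% intervals of the moderated test) for the 3 comparisons, with filled points for an adjusted p under 0.05. The filled points are Trim63 at −2.48 and −3.24 and Fbxo32 at −2.15 and −2.78, and every other point lies between −0.59 and 0.77.

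Some of these genes overlap annotated neighbours, and as no source says whether counting used strand, reads of both strands cannot be told apart. Gm15943, antisense to Fbxo32 over 458 bases, fell by 2.69 against LDKO (limma, adjusted p = 0.0198) and was at −1.67 against Control (adjusted p = 0.0768). Gm15469 opposite Trim54, Astn2 opposite Trim32, and Jmjd8 and Gm26694 opposite Stub1 did not pass in any comparison, and neither did the 3 tested transcripts inside Nedd4. The lowest adjusted p among these was 0.0842, for Gm26694 in LTKOFstL/L against Control.

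The genes nearest to Trim63 and Fbxo32 in pattern were found by the values themselves, so their low LTKOFstL/L values follow from the choice and are a description. Likeness was the root mean square (RMS) difference of the log2 values over the 6 libraries, each gene centred on its mean, among 17117 other genes. Nearest to Trim63 were Klhl38 (RMS difference 0.22), Gm10086 (0.24), Gm26513 (0.25), Fbxo32 (0.26) and 8430408G22Rik (0.30), and Trim63 was the 8th nearest gene to Fbxo32. Nearest to Fbxo32 were Slc43a1 (0.14), Klhl38 (0.15), Acot2 (0.17), Tmem140 (0.17) and Gm10086 (0.18). Slc43a1 encodes a transporter of branched-chain amino acids and Acot2 a mitochondrial acyl-CoA thioesterase. Klhl38 encodes a Kelch-like protein and stood on both lists, with values of 0.54 and −0.41 in Control, 0.41 and 0.79 in LDKO and, in LTKOFstL/L, −2.15 and −2.45. Klhl38 (ENSMUSG00000022357) lies on chromosome 15 at 58314573 to 58324169, 99.6 kb from Fbxo32 on the same strand, with 0 annotated genes wholly between them.

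The changes of these genes lay between −3.50 and −1.90 in the LTKOFstL/L comparisons. Gm10086, put under a log2 level of 4 in its lowest library, passed in neither (limma, adjusted p = 0.102 against Control and 0.0582 against LDKO). The others passed in both, 8430408G22Rik (adjusted p = 0.0492) and Gm26513 (0.0444) only narrowly against Control. Of 14 alternative fits against Control, 8430408G22Rik passed in 4, Slc43a1 in 5, Klhl38 in 8, Acot2 in 12 and Tmem140 in 13. Gm26513 passed in 7 of 13. The smallest change was that of Slc43a1 against Control (−1.90) and the largest that of 8430408G22Rik against LDKO (−3.50). Acot2 stood at −2.12 against Control and −2.44 against LDKO, and Tmem140 at −2.36 and −2.68. Gm10086 is annotated as a pseudogene and Gm26513 has no named product, and reads of a pseudogene can be shared with a related gene.

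**Figure D3:**
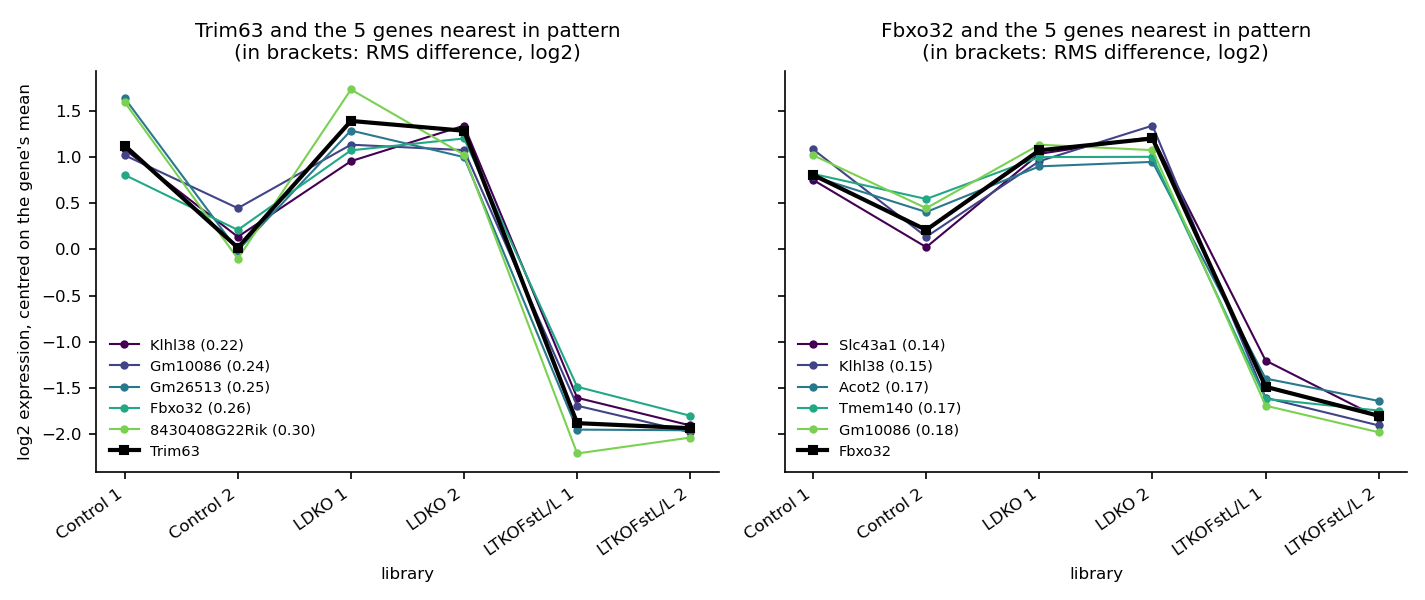
Log2 expression centred on each gene's mean (y axis) in the 6 libraries (x axis) for Trim63, left, and Fbxo32, right, in black, with the 5 genes nearest in pattern and their RMS differences from 0.14 to 0.30. Every line drops in the 2 LTKOFstL/L libraries, and the first Control library lies above the second.

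Few other genes of the ubiquitin system passed. In LDKO against Control, 0 genes passed in limma on each of the 7 lists described here. From 0 to 6 genes a list had an unadjusted p under 0.05, beside 6.89% of all genes. The 6 were among the 28 regulators of ligase transcription. Over all genes, 15.2% had an unadjusted p under 0.05 in LTKOFstL/L against Control and 18.7% against LDKO. Of 27 other muscle ubiquitin ligases, 0 passed in LTKOFstL/L against Control (6 at an unadjusted p under 0.05) and 1 fell against LDKO (9 at an unadjusted p under 0.05), with medians of 0.01 and 0.11 beside 0.00 and 0.01 over all genes. The 1 was Ubr4, an N-end rule ligase, at −0.74 ± 0.14 (SE, limma adjusted p = 0.0487), and it was lost with each library left out. The 6 genes of the SCF core that carries atrogin-1 had medians of −0.04 and 0.01 in the LTKOFstL/L comparisons and 0 passed in limma, with 1 at an unadjusted p under 0.05 in each. The scaffold gene Cul1 was at −0.39 against LDKO (adjusted p = 0.192) and the Nedd8-conjugating enzyme gene Ube2m at −0.33 (0.394).

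Of 23 E1, E2 and ubiquitin genes, 2 fell against LDKO and 0 passed against Control in limma (9 and 4 at an unadjusted p under 0.05), with medians of −0.07 and −0.06. The median against LDKO of these 23 genes was 0.04 without LDKO 1, 0.01 without LTKOFstL/L 1 and −0.11 without LDKO 2. Among them Ube4a, a chain-elongating factor, was at −1.06 ± 0.18 (SE, limma adjusted p = 0.04) against LDKO, a call that stood in 1 of the 6 fits with a library left out, without LDKO 1.

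No proteasome subunit gene passed. Of 33 subunit genes, 0 passed in limma in each comparison, and 0, 3 and 5 had an unadjusted p under 0.05 for LDKO against Control and for LTKOFstL/L against first Control, then LDKO. Their median change was 0.16 in LDKO against Control, −0.10 in LTKOFstL/L against Control and −0.29 in LTKOFstL/L against LDKO, beside medians within 0.01 of 0 for all genes. The first of these rests on LDKO 1: without it the median was 0.01, and it was 0.09 without Control 2 and 0.30 without LDKO 2. Means were higher in LDKO than Control for 31 of 33 subunit genes and for 50.3% of all genes, but for 21 of 33 without LDKO 1. LTKOFstL/L means were below Control for 21 of 33, with a median of 0.00 without Control 1, 0.03 without LTKOFstL/L 1 and −0.16 without Control 2. They were below LDKO for 28 of 33 (49.5% of all genes), but for 22 without LDKO 1 and 23 without LTKOFstL/L 1, with medians of −0.11 and −0.16. In 18 of the 33, both LTKOFstL/L libraries lay below both LDKO libraries, where 24.1% of all genes did. Psmd11, a regulatory lid subunit, was at −0.60 ± 0.14 against LDKO (adjusted p = 0.0767) and Psmd4, a ubiquitin receptor, at −0.64 ± 0.19 (0.144). Among 12 deubiquitinases 0 passed in limma (1 at an unadjusted p under 0.05 in each comparison). Their medians were −0.09 against Control and −0.15 against LDKO. The median against LDKO was 0.01 without LDKO 2 and −0.32 without LDKO 1. Usp13 stood at −0.47 (limma, adjusted p = 0.203) and Uchl3 at 0.33 (0.272) against LDKO.

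Regulators of ligase transcription, a list that also holds glucocorticoid response genes such as Tsc22d3, held the most calls of these lists. Of 28 genes, 1 rose and 3 fell in LTKOFstL/L against Control (median −0.26, and −0.14 without Control 1), and 2 rose and 3 fell against LDKO (median −0.22). Over all genes 1.71% and 2.13% passed. An unadjusted p under 0.05 in limma was found for 9 of the 28 against Control and 14 against LDKO, beside 15.2% and 18.7% of all genes. Foxo6, the FoxO gene best known from brain, had values of −0.35 and −0.46 in Control, −0.01 and 0.01 in LDKO, with 2.39 and 2.10 in LTKOFstL/L. It rose by 2.66 ± 0.27 (SE, limma adjusted p = 0.0074) and 2.25 ± 0.27 (adjusted p = 0.0139). Foxo3 fell against LDKO by 1.33 ± 0.21 (adjusted p = 0.0337) and was at −0.79 against Control (adjusted p = 0.148). Foxo1, with values of 1.04 and −0.95 in Control, 0.86 and 0.74 in LDKO and, in LTKOFstL/L, −0.74 and −0.999, passed in no comparison. Foxo4 was at −0.17 and −0.12 in the LTKOFstL/L comparisons and did not pass.

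Cebpd, a C/EBP transcription factor gene, had values of 0.54 and −0.54 in Control, 0.56 and 0.77 in LDKO, with −2.04 and −1.70 in LTKOFstL/L. It fell by 2.54 ± 0.34 (SE, limma adjusted p = 0.0216) against LDKO and missed the threshold against Control at −1.87 (adjusted p = 0.05002). Klf15, a glucocorticoid-induced factor, fell against LDKO by 1.56 (adjusted p = 0.0305). Cebpb and Tsc22d3, which encodes the glucocorticoid-induced protein GILZ, fell against Control by 0.94 (adjusted p = 0.0477) and 1.09 (0.0313). Other genes of the list known from glucocorticoid or cytokine responses did not pass. Fkbp5 was at −0.59 against Control and −1.50 against LDKO (adjusted p = 0.42 and 0.0591), Stat3 at −0.21 and −0.07, Nfkb1 at −0.37 and −0.23, and Nfkbia at −0.39 and −0.07. The glucocorticoid receptor gene Nr3c1 was at −0.11 and 0.13 in the LTKOFstL/L comparisons and did not pass. Foxo1, Foxo3, Foxo4, Klf15, Cebpb, Tsc22d3, Fkbp5, Stat3, Nfkb1, Nfkbia and Nr3c1 are named beyond the fixed rule, after their values were seen.

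Myog, a myogenic factor that activates both ligase genes in denervated muscle, had values of 1.25 and 1.67 in Control, −0.50 and 0.50 in LDKO, with −1.23 and −1.24 in LTKOFstL/L. It fell by 2.70 ± 0.38 (SE, limma adjusted p = 0.0205) against Control. Smad3, a transducer of activin and myostatin receptors, had values of −0.07 and 0.26 in Control, −1.73 and −1.11 in LDKO, with 0.22 and 0.07 in LTKOFstL/L. It rose by 1.57 ± 0.23 (adjusted p = 0.0278) from LDKO to LTKOFstL/L. Every call on this list was lost without LTKOFstL/L 1 and without LTKOFstL/L 2.

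Of 31 substrates and partners of the ligases, 0 passed against Control (7 at an unadjusted p under 0.05) and 1 fell against LDKO (8 at an unadjusted p under 0.05), with medians of −0.02 and −0.12. The 1 was Sqstm1, which encodes the ubiquitin-binding autophagy receptor p62, with values of 0.15 and −0.06 in Control, 0.22 and 0.06 in LDKO and, in LTKOFstL/L, −0.74 and −0.71. It fell by 0.87 ± 0.15 (SE, limma adjusted p = 0.0394) against LDKO, a call that stood in 1 of the 6 fits with a library left out, without LDKO 2.

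**Figure D4:**
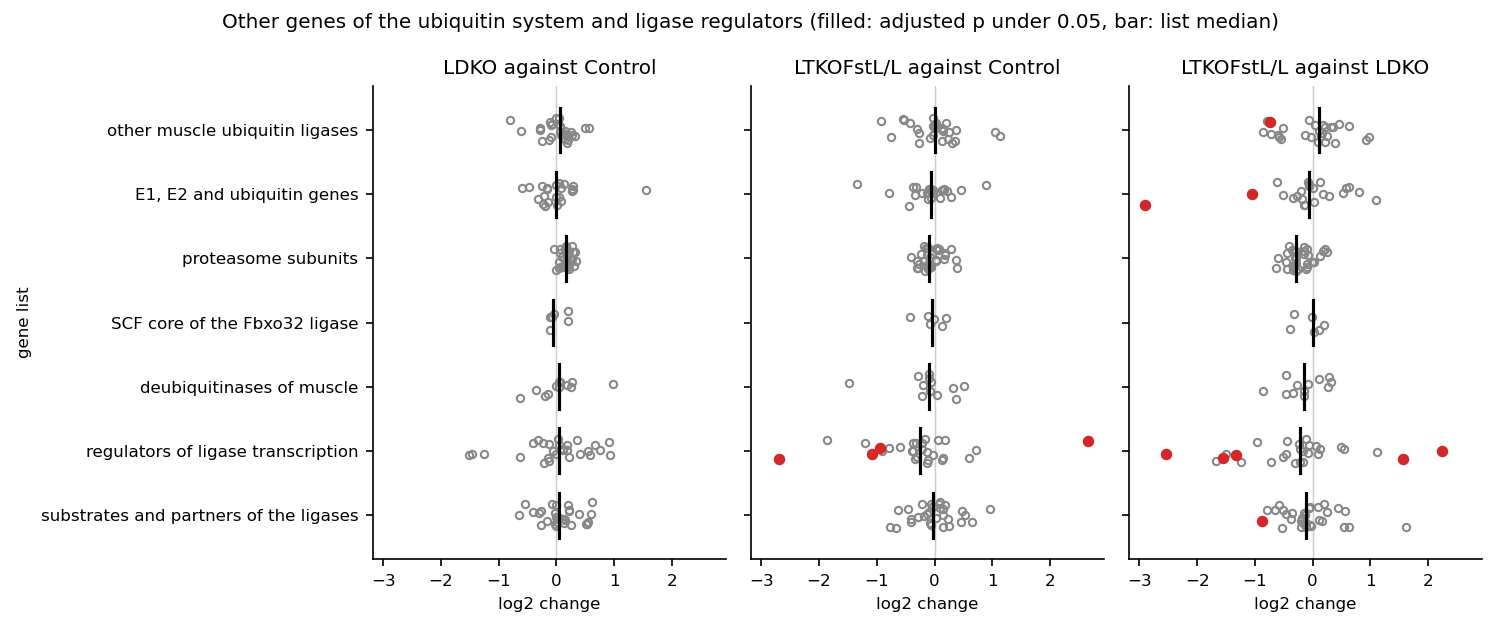
Log2 change (x axis) of each tested gene on the 7 lists (y axis) in the 3 comparisons, with filled points for an adjusted p under 0.05 and a bar at the list median. Filled points are absent in LDKO against Control, and the regulators hold 4 and 5 filled points in the LTKOFstL/L comparisons.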

How the data were processed

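Bulk RNA sequencing libraries of skeletal muscle were made from total RNA extracted with TRI Reagent and a SMARTer kit, per the labels' protocols. The submitters' processing notes name the build mm10. Aligner, counter, strand setting and normalization: not given in the sources used here. What was deposited is a table of log2 values. As judged from the values, the authors floored library-scaled values at 1, took the log2 and centred each gene on its median over the 6 libraries. The authors' deposited lists of called genes give log2 fold changes and corrected p-values, and a header of the same workbook names an AC test.

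Median levels were bracketed from the step of the single-precision numbers, and the level in each library was estimated from a value within the bracket. A gene was tested if its log2 level reached 4 (16 scaled units) in at least 2 libraries, which left 17118 of 53342 genes. limma 3.58.1 in R 4.3.3 fitted 1 mean per genotype (3 residual degrees of freedom) with robust empirical Bayes in 3 strata of the lowest library's level (under 4, 4 to 8, 8 or more). P-values were two-sided, Benjamini-Hochberg adjusted over all tested genes, threshold 0.05; "rose" and "fell" mean passing it. Intervals are 95% intervals from the moderated standard error, with no adjustment. Alternatives were other level filters, priors and sample sets, a replicate block, shifted libraries, omitted acinar genes and each library left out. Calculations were tested on simulated data. Coordinates are from GENCODE M21.

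The members, lists and strata were chosen with earlier results of these data known. Named genes were the 10 members, at most 4 per list by smallest adjusted p (2 where none passed), and the 5 nearest in pattern to Trim63 and Fbxo32. The replicate numbers of the titles were not taken as pairs. One gene of the E1, E2 and ubiquitin list is not reported here.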

Additional observations from a re-analysis of the deposited data

How the results depend on the processing

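The Trim63 and Fbxo32 falls kept their direction in all 14 alternatives. Against Control their sizes ran from −3.03 to −1.93 and from −2.45 to −1.85, and their calls depend on how variances are pooled. In LTKOFstL/L against Control the number of the 10 genes called was 1 with only the groups compared, 0 with a single prior and 0 with a spline trend, and 0 to 2 with a library left out. Against LDKO it was 1, 0 and 1 to 2 for a single prior, a spline trend and a left-out library. In LDKO against Control it was 0 throughout. With the replicate block the 10-gene counts stayed at 2, 2 and 0. The numbers share no stated source, and deviations of same-numbered libraries correlated at 0.36 for Control and LDKO, −0.25 for Control and LTKOFstL/L and −0.47 for LDKO and LTKOFstL/L. With the LTKOFstL/L numbers crossed, a block chosen after seeing the data, 2 and 4 of the 10 genes and 730 and 1482 of all genes passed against Control and LDKO.

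Over all genes, 2 passed in LDKO against Control, but 28 at a level of at least 8, 34 with the replicate block, 45 with a spline trend, 1 with a single prior and 2 to 46 with a library left out. In LTKOFstL/L against Control 293 passed, but 80 with no level filter, 526 with only the groups compared, 23 with a single prior and 25 to 526 with a library left out. Against LDKO 364 passed, but 180 with no level filter, 237 with the replicate block, 58 with a single prior and 33 to 496 with a library left out. Shifting the libraries to a common median changed no call of the 10 genes.

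Of 420 values for the 10 genes under the alternatives, 380 kept direction and side of the threshold, 19 lost the call and 21 changed sign. All 21 came from leaving out a library and none belonged to a called gene. With a library left out, the LDKO against Control change ranged from −0.13 to 0.11 in Trim55, −0.073 to 0.29 in Trim54, −0.29 to 0.13 in Nedd4, −0.23 to 0.11 in Traf6 and −0.019 to 0.34 in Stub1. The LTKOFstL/L against Control change ranged from −0.22 to 0.11 in Trim54, −0.0077 to 0.40 in Trim32, −0.33 to 0.020 in Nedd4 and −0.10 to 0.21 in Traf6. Against LDKO it ranged from −0.35 to 0.015 in Trim54, −0.28 to 0.13 in Nedd4, −0.059 to 0.29 in Traf6 and −0.19 to 0.17 in Stub1. Where a group keeps 1 library, that library is assumed to vary like the others. The cause of these dependences was not tested. Medians of the gene lists without each library were added after seeing the data. Depth is unknown.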
